A study of Homo sapiens with 24 samples.

Results

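The report concerns 234 short stretches of the human transcriptome in which m6A immunoprecipitation gave no peak summit in any HepG2 library expressing METTL14 with the substitution D312A, while libraries expressing METTL14 with the substitution R298P kept one. They were picked from 34313 regions, made by merging the summits of all 12 immunoprecipitated libraries wherever neighbours lay within 100 nt. A member had a summit in 0 of 3 D312A libraries, in at least 2 of 3 R298P libraries, and in at least 4 of the 6 libraries of the WT and EGFP lines. The choice therefore rests on the summit lists themselves, and the presence or absence of members in each line is given below as a description, with no test.

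N6-methyladenosine (m6A) is an internal mark of mRNA that affects splicing, export, translation and decay through proteins that bind it. It is written during transcription by a complex in which METTL3 carries the catalytic site and METTL14 provides a surface that holds the RNA. The complex prefers adenosines in short motifs with GGAC at their core, and peaks of the mark are known to gather in long internal exons and around stop codons. FTO and ALKBH5 remove the mark, and YTH domain proteins read it.

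HepG2, an established line of liver cancer cells, keeps many hepatocyte genes. Per the labels, 4 stable lines were made by lentiviral integration and puromycin selection, expressing METTL14 (D312A), METTL14 (R298P), METTL14 (WT) or, as the control, EGFP. Each line gave 3 biological replicates, each with an anti-m6A immunoprecipitate and an input of poly(A) RNA, 24 samples in all, of which the 12 immunoprecipitates are used here. The labels name no removal of the cells' own METTL14 and do not say whether a line is a clone or a pool.

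The lists held 12357, 8669 and 12350 summits in D312A replicates 1 to 3, and 11960, 11590 and 13721 in R298P. They held 14797, 12620 and 15114 summits in WT and 15373, 13859 and 12665 in EGFP. D312A replicate 2 thus had the shortest list. How many reads lie behind each list is unknown, and with it the depth. An absent summit means that no summit was listed there, not that the RNA carried no m6A, and less m6A cannot be told apart from less RNA of that gene. All 12 genes of the hepatocyte marker list held a summit, against 3 of 13 fibroblast, 6 of 13 blood and 4 of 9 endothelial markers.

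The gene-start table of RefSeq (GRCh38.p14) held the full 51 nt around the centre of 5 members. These are shown because the writer complex prefers short motifs, although the window around a summit need not hold the motif used. The table spans 250 nt before to 50 nt after each gene's start, and the windows were read at the starts listed for UTP14C (the region in ALG11), DYRK1A, EIF1B-AS1 (the region in EIF1B), ARHGEF17-AS1 (the region in ARHGEF17) and ARHGAP5. The regions in ALG11 and DYRK1A themselves lie 12228 and 1918 nt inside the spans of those genes. Capitals mark GGAC, searched on the printed strand. The regions in ALG11 (an enzyme of N-glycan assembly), DYRK1A (a protein kinase) and EIF1B (a translation initiation factor) are on the plus strand, and the region in ARHGEF17 and the region assigned to no single gene are printed on the genome's plus strand.
ALG11 (chr13:52024601-52024651): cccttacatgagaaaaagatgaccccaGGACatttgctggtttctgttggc
DYRK1A (chr21:37367465-37367515): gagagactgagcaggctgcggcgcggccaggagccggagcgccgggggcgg
EIF1B (chr3:40309731-40309781): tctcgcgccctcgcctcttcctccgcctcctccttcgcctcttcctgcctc
ARHGEF17 (chr11:73309316-73309366): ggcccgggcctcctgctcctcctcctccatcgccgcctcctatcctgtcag
Unassigned, at the start of ARHGAP5 (chr14:32077076-32077126): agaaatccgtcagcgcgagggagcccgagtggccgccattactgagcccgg
GGAC was found in 1 of these 5 windows, in 20 of 59 windows (33.9%) of regions kept by D312A, and in 17.0% of 35116 central stretches of the same length over the whole table. The 59 windows are likewise only those at gene starts, from 6824 regions kept by D312A. GGACT, whose letters contain GGAC, was found in 0 of 5 windows, against 6 of 59 (10.2%) in kept regions and 4.4% in all stretches. With 5 windows these shares say little about the members, and a match of letters is a description and not a methylated site.

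The 234 members came from 7980 regions that met the conditions on WT, EGFP and R298P and could therefore have been missing in D312A. They were 2.93% of these candidates. This share moved between 1.9 and 8.69% when replicates were left out, which also changes what the rule asks. Of the same candidates, 922 (11.55%) had a summit in 1 D312A library, 2037 (25.53%) in 2 and 4787 (59.99%) in 3. The 6824 candidates with a summit in 2 or 3 D312A libraries are called kept regions here. Exchanging both substitutions in the rule gave 295 of 7967 candidates missing in R298P and kept in D312A, or 3.7%. The order of both counts turned without replicate 1 of all lines (380 missing in D312A and 232 missing in R298P) and without replicate 3 of all lines (281 missing in D312A and 245 missing in R298P). With all lists cut to 8669 top-ranked summits, 101 regions were missing in D312A and 233 in R298P. Under the rule itself, another 323 regions had no summit in either line.

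D312A libraries differed in how many candidates they held. Replicates 1, 2 and 3 of D312A held 86.4, 70.2 and 86.0% of them, and the corresponding R298P libraries held 79.5, 78.9 and 86.6% of the 7967 regions that could have been missing there. Of the 922 candidates with a summit in a single D312A library, 460 had it in replicate 1, 90 in replicate 2 and 372 in replicate 3. Leaving out D312A replicate 1 raised the count of members to 692 and leaving out replicate 3 raised it to 603, against 323 without replicate 2, because the rule then asks for absence in fewer libraries. Replicate 1 of every line has a list named by another scheme than replicates 2 and 3, and the labels do not say why. Replicates 2 and 3 alone gave 380 of 6291 candidates (6.04%) missing in D312A, among them 114 of the 234 members, and 232 regions missing in R298P.

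Members were near the edge of the rule more often than far inside it. There were 87 with a summit in 3 of 3 R298P libraries and 147 in 2 of 3. In the WT and EGFP libraries together, 33 members were held by 6 of 6, 74 by 5 and 127 by 4. All of these libraries held 9 members, against 4157 of the 7980 candidates. At the limit itself, 75 members had exactly 4 of 6 and 2 of 3. Just outside were 180 regions with 3 of 6 libraries of WT and EGFP, and 229 regions with a summit in 1 R298P library. Per library, 170, 181 and 204 members had a summit in R298P, 186, 168 and 195 in WT, and 186, 177 and 164 in EGFP. The means were 185.0 ± 17.35 in R298P, 183.0 ± 13.75 in WT and 175.67 ± 11.06 in EGFP (SD, n = 3 each), so the lines differed by less than the spread between replicates, in a count whose floor the rule sets.

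**Figure D1:**
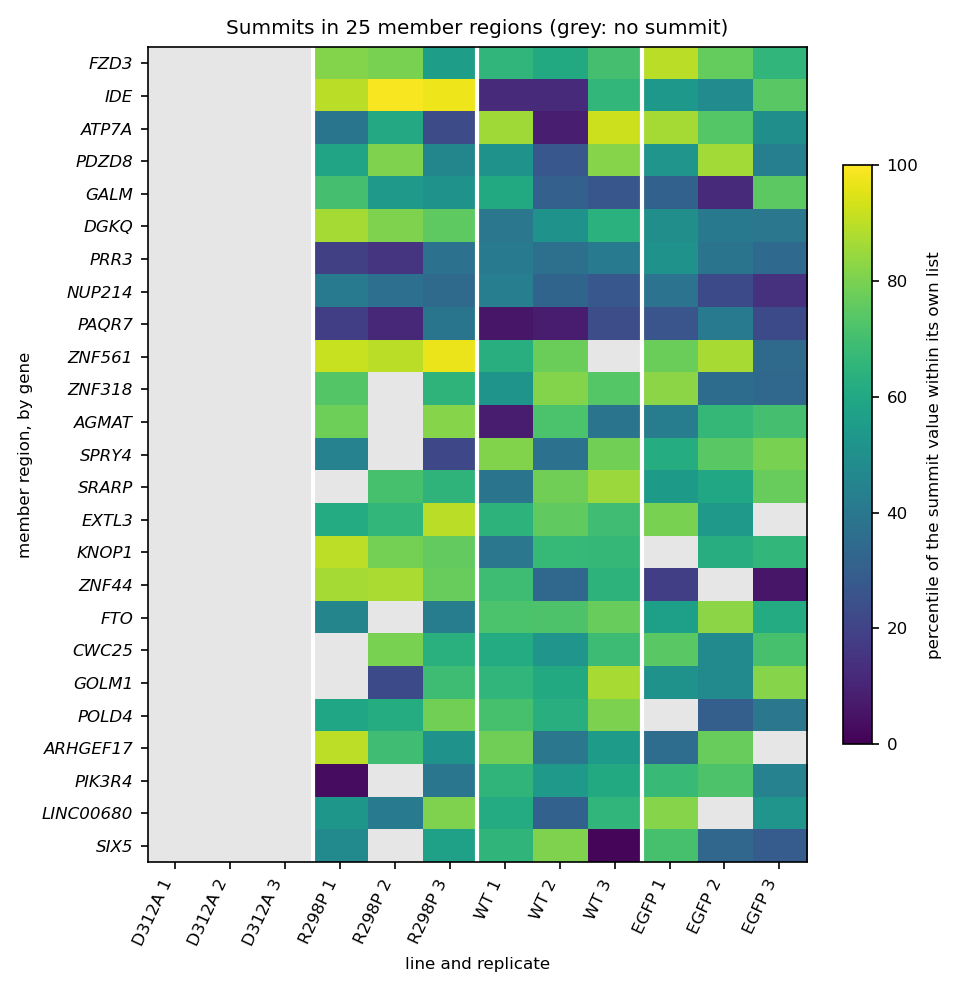
Percentile of the summit value within its own list (colour, 0 to 100) for 25 member regions, named by gene and ordered by the number of libraries that hold them, in replicates 1 to 3 of D312A, R298P, WT and EGFP. Grey marks a library with no summit, which by the choice of members holds for all 3 D312A libraries, and FZD3 to PAQR7 have a summit in all 9 other libraries.

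The members were mostly weak summits. To describe strength, the authors' value for each summit (on a −log10 scale of significance) was turned into a percentile of its own list. The median percentile over the WT and EGFP lists was 40.5 for members, with quartiles of 27.2 and 52.4, against 70.1 for kept regions, with quartiles of 50.9 and 84.5. The order was the same in each of the 9 lists outside D312A, where member medians ran between 33.2 and 44.3 and kept medians between 65.3 and 72.8. Candidates with a summit in 1 D312A library lay close to the members, at a median of 43.9, and regions missing in R298P had 45.9.

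The share of candidates missing in D312A was lower where summits were stronger in WT and EGFP. It was 8.66% (33 of 381) among candidates at percentiles of 0 to 20, then 7.08%, 4.7% and 1.34% in the next bands of 20, and 0.0874% (2 of 2289) at 80 to 100. Both exceptions were chosen after their values were seen, and lie in CTXND1 (chr15:80201740-80201770, median percentile 84.8) and in no single gene (chr11:86952306-86952325, 80.6). For regions missing in R298P the shares over the same bands were 8.7, 7.88, 5.81, 2.4 and 0.683%. Over all candidates, presence in a D312A list was higher in the highest band than in the lowest. In D312A replicate 2 the share with a summit was 48.6% in the lowest band, 46.0% in the next and 93.4% in the highest. The lowest and highest bands had 73.0 and 95.9% in D312A replicate 1. In R298P replicate 2 they had 47.1 and 94.9% of the regions that could have been missing there, so the rise is not particular to D312A. The part of list length and summit strength in the absence of members was not tested.

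**Figure D2:**
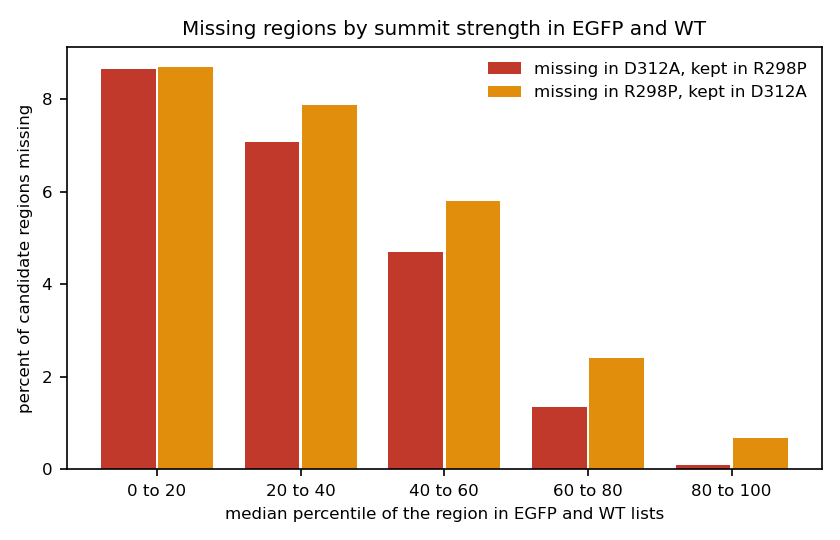
Percent of candidate regions missing in D312A (red) or missing in R298P (orange), by the median percentile of the region's summit value in the WT and EGFP lists, in bands of 20. Both shares decline over the bands, to 0.0874% for D312A and 0.683% for R298P in the band of 80 to 100.

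Only 9 members had a summit in all 9 libraries outside D312A, and they are given one by one. They lie in genes of unlike function. Places are given on hg38, and the lists carry no strand. Where the span of a gene is named, it is that of RefSeq, which does not tell exons, introns and untranslated regions apart.

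FZD3 encodes a frizzled receptor for Wnt ligands. Its region, chr8:28503022-28503051, reached percentiles of 81.5, 79.7 and 55.7 in R298P, 65.9, 60.9 and 70.7 in WT, and 89.8, 76.3 and 65.7 in EGFP. These are high for a member in nearly every library, and the nearest D312A summit lay 59854 nt away. Here and below, summits counted over a gene include its member, which D312A lacks by the choice of members. Over the whole gene, D312A listed 1, 0 and 1 summits, while each R298P, WT and EGFP library listed 2. The gene thus kept its other summit in 2 of 3 D312A libraries.

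ATP7A encodes a copper-transporting ATPase, mutated in Menkes disease. Its region, chrX:77988436-77988455, lies 77752 nt from the 5′ end and 61950 nt from the 3′ end of the gene span. It reached 38.7, 60.5 and 22.9 in R298P, 85.7, 8.3 and 92.4 in WT, and 86.6, 73.7 and 49.7 in EGFP, so replicates of WT alone covered most of the scale. D312A listed no summit anywhere in the gene, the nearest being 115539 nt away.

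GALM encodes galactose mutarotase, which interconverts the anomers of galactose ahead of the Leloir pathway. The region, chr2:38734604-38734629, lies 148 nt from the 3′ end of the gene span. Its percentiles were 70.6, 54.1 and 51.4 in R298P, 60.7, 30.7 and 26.9 in WT, and 31.0, 12.3 and 74.8 in EGFP. No D312A library listed a summit in the gene.

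DGKQ encodes diacylglycerol kinase theta, which turns diacylglycerol into phosphatidic acid. At chr4:959452-959488, R298P reached 86.7, 80.8 and 75.1, WT 39.8, 51.0 and 63.9, and EGFP 49.6, 40.5 and 39.5. The R298P percentiles lay above those of every WT and EGFP library. Ranks from lists of different length do not show a change in methylation. D312A had a single summit near it, in replicate 1, 920 nt away on the side of lower coordinates, where most other libraries had one too.

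IDE encodes the insulin-degrading enzyme, a metalloprotease that also cleaves other small peptides. The region, chr10:92573206-92573241, lies 870 nt from the 5′ end of a gene span that runs for another 121540 nt. It ranked at 89.7, 99.1 and 97.6 in R298P, against 11.9, 12.3 and 66.1 in WT and 53.4, 48.3 and 74.5 in EGFP, and again R298P lay above every other library. D312A listed summits 262 and 238 nt toward the 3′ end in replicates 2 and 3, and at 126 nt toward the 5′ end and 266 nt toward the 3′ end in replicate 1. Every R298P, WT and EGFP library also had a summit on that 3′ side. With 109 nt between the region's edge and the nearest D312A summit, IDE is among the 5 members closest to one.

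PDZD8 encodes a membrane protein of the endoplasmic reticulum that tethers it to other organelles. The region, chr10:117285222-117285262, reached 58.4, 80.5 and 45.8 in R298P, 51.5, 27.2 and 81.9 in WT, and 52.2, 86.3 and 43.3 in EGFP. D312A replicates 2 and 3 listed summits 579 and 533 nt farther toward the 3′ end, and replicate 1 listed none within 1000 nt.

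NUP214, a nuclear pore protein, PRR3, a proline-rich protein, and PAQR7, a membrane progestin receptor, held weaker members. NUP214 (chr9:131197790-131197838) ranked at 41.5, 36.4 and 34.6 in R298P, 42.9, 32.1 and 27.1 in WT, and 38.1, 22.4 and 14.4 in EGFP. PRR3 (chr6:30562720-30562754) ranked at 18.8, 15.1 and 37.8 in R298P, 41.1, 36.8 and 41.5 in WT, and 50.8, 38.4 and 34.2 in EGFP. PAQR7 (chr1:25862634-25862703) was the weakest of the 9, at 18.6, 11.3 and 38.7 in R298P, 6.0, 7.9 and 23.5 in WT, and 26.4, 41.1 and 22.6 in EGFP. In these genes D312A kept summits beside the missing region, in NUP214 310 nt upstream in replicate 3 and 311 nt upstream in replicate 2. In PAQR7 they lay 280 and 278 nt away in replicates 1 and 3, and in PRR3 538 nt away in replicate 1.

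**Figure D3:**
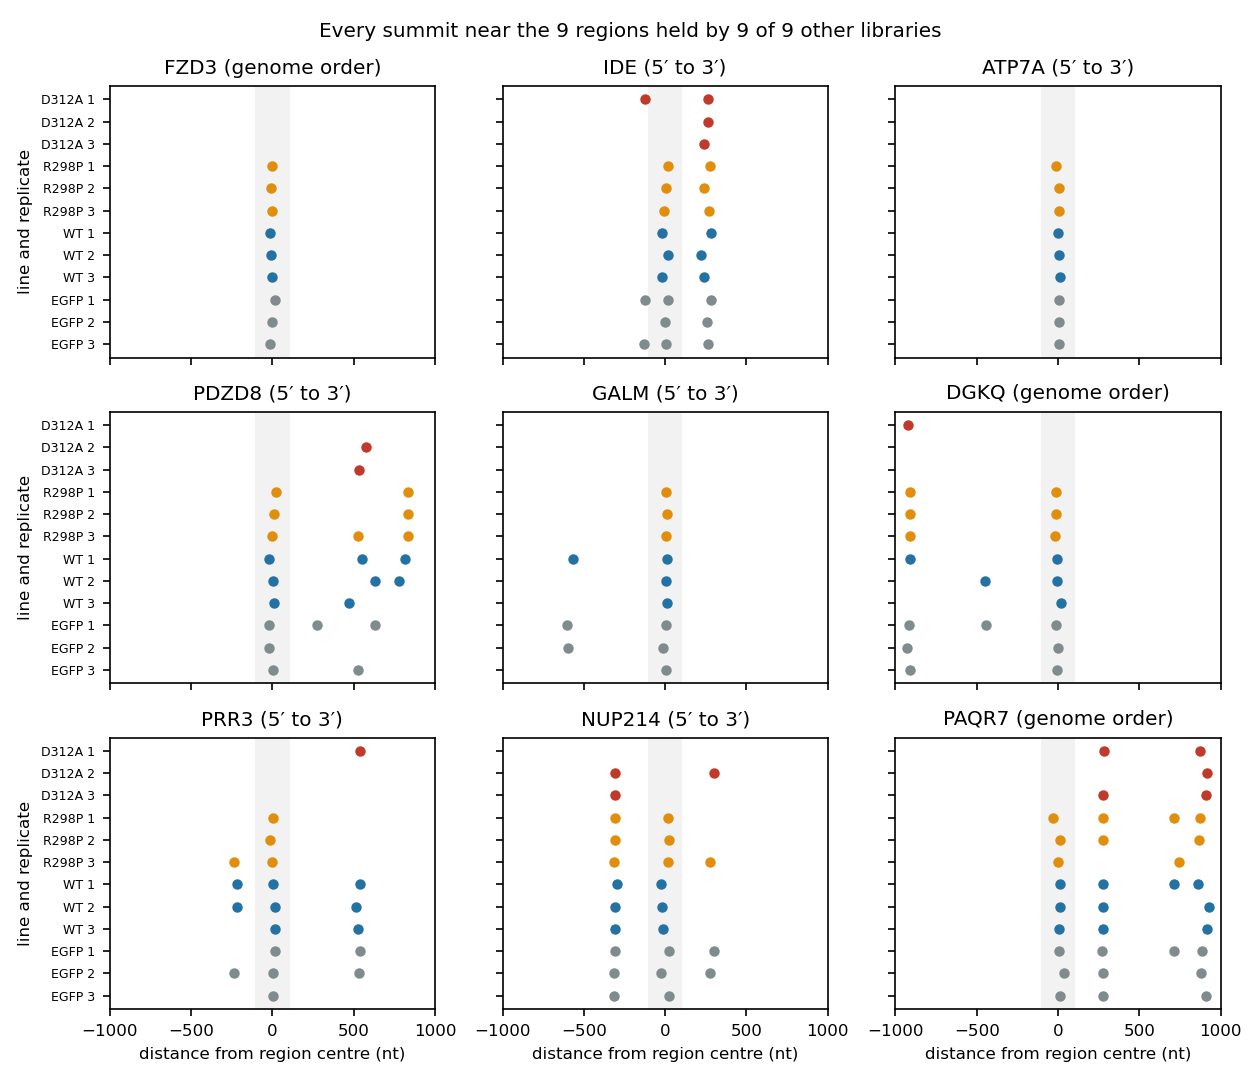
Position of every listed summit within 1000 nt of the centre of the 9 regions held by all 9 R298P, WT and EGFP libraries, in nt, with libraries as lines from D312A replicate 1 at the top to EGFP replicate 3. Grey shading marks 100 nt on both sides of the centre, where D312A has no summit, and FZD3, ATP7A and GALM are the panels with no D312A summit in view.

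Another 50 members had a summit in 8 of the 9 libraries. ZNF561, a KRAB-type zinc finger gene, held the strongest of them in R298P (chr19:9610105-9610114), at 91.5, 89.6 and 97.2, against 63.0 and 77.7 in WT replicates 1 and 2 and 77.4, 87.0 and 34.5 in EGFP. Like IDE and DGKQ, it ranked higher in each R298P library than in any WT or EGFP library. So did KNOP1, a nucleolar protein (chr16:19714465-19714480), at 89.9, 79.1 and 75.9 in R298P, 39.5, 67.0 and 66.7 in WT, and 62.2 and 66.3 in EGFP replicates 2 and 3. The zinc finger gene ZNF44 (chr19:12273595-12273654) had 86.6, 87.3 and 76.6 in R298P, 68.9, 33.4 and 64.7 in WT, and 18.7 and 6.2 in EGFP replicates 1 and 3. How many of all members, or of all candidates, rank highest in R298P was not counted, so these genes are single cases.

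Others of the 50 ranked lower in R298P. PIK3R4 encodes the regulatory subunit of the class III phosphoinositide 3-kinase of autophagy. Its region (chr3:130744758-130744790) had 3.2 and 39.2 in R298P replicates 1 and 3, against 65.5, 54.0 and 60.6 in WT and 67.3, 72.0 and 44.2 in EGFP. Members were thus not of 1 kind in their rank under R298P. Between these lay CWC25, a spliceosome-associated protein, with percentiles between 47.8 and 79.9 over its 8 libraries, and EXTL3, a glycosyltransferase of heparan sulfate synthesis, between 54.1 and 89.5. AGMAT spanned 7.9 to 81.7 and GOLM1, a Golgi membrane protein, 22.5 to 86.8. In WT alone AGMAT had 7.9, 71.7 and 38.5, a spread nearly as wide as that over all its libraries.

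Absence of a summit in the region did not mean absence nearby. The gap between a member's edge and the nearest D312A summit had a median of 629 nt, with quartiles of 252 and 15349 nt, and ran between 109 and 523271 nt. A D312A summit lay within 200 nt of 36 members (15.4%), within 500 nt of 108 (46.2%) and within 1000 nt of 130 (55.6%). For regions missing in R298P, an R298P summit lay within 500 nt of 150 of 295 (50.8%), with a median gap of 483 nt. All 3 D312A libraries had a summit within 500 nt of 53 members, 2 of them for 21 members and 1 of them for 34.

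The neighbouring D312A summits were mostly ones that the other lines had as well. Of the 108 members with a D312A summit within 500 nt, the region of that neighbour was also held by 7 to 9 of the 9 other libraries in 64 cases, by 4 to 6 in 21, and by 1 to 3 in 20. In the remaining 3 cases no other library had it. These 3, chosen after their values were seen, lie in POLD4, which encodes a small subunit of DNA polymerase delta (gap 111 nt), in the lncRNA gene ZFAND2A-DT (170 nt) and in no single gene (204 nt). A gene strand was assigned for 77 of the 108, and the D312A summit was on the 3′ side in 45 and on the 5′ side in 32.

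**Figure D4:**
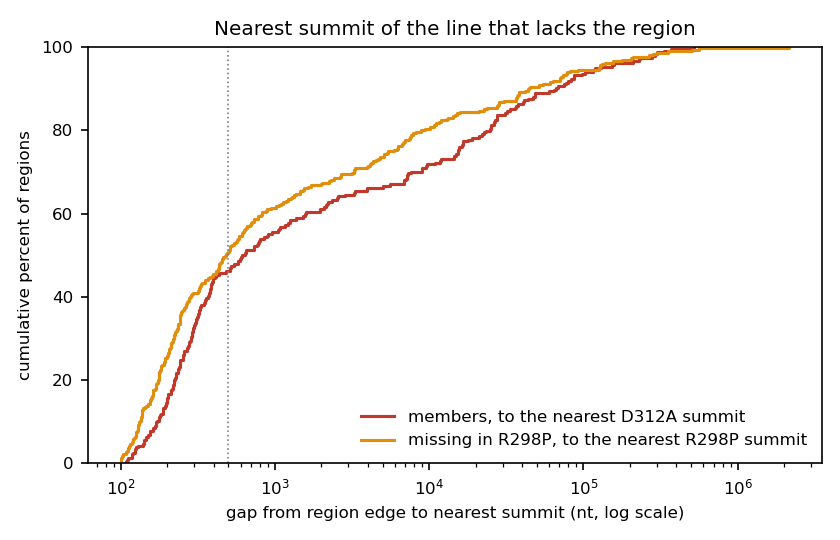
Cumulative percent of regions against the gap in nt (log scale) between the region's edge and the nearest summit of the line that lacks it, for members and D312A summits (red) and for the 295 regions missing in R298P and R298P summits (orange). The dotted line marks 500 nt, reached by 46.2% of members and 50.8% of the regions missing in R298P.

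The members farthest from D312A summits include FTO and ACAD8. FTO encodes a demethylase of m6A. It was the 1 gene of 8 readers and erasers with a candidate region that held a member. Of all genes with a candidate region 4.52% held one, and a single gene does not set FTO's list apart. The region in FTO, chr16:53826319-53826325, reached 45.7 and 42.0 in R298P replicates 1 and 3 with no summit in replicate 2, 71.7, 71.9 and 76.7 in WT, and 56.6, 82.5 and 61.4 in EGFP. It lies at 29.3% of the gene span, and it was the only summit of FTO in every library that had one. No D312A library listed a summit in FTO, and the nearest lay 333986 nt away. ACAD8, which encodes isobutyryl-CoA dehydrogenase of valine breakdown, had its region (chr11:134265057-134265167) 292921 nt from a D312A summit. It ranked low in R298P, at 0.5 and 18.2 with none in replicate 2, and at 56.8, 45.3 and 53.0 in WT and 13.8, 67.2 and 18.5 in EGFP. The other 3 of the 5 farthest members lie in no single gene, on chromosomes 12, X and 10.

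Of the 234 members, 205 could be assigned to a single gene, which gave 202 genes, 192 of them protein-coding and 10 lncRNA genes. Protein-coding genes held 83.3% of members and 88.4% of kept regions, and lncRNA genes held 4.3 and 2.8%. BCL9L, ANKRD55 and MAGEF1 were the genes with more than 1 member. For the 155 members in a protein-coding gene with a strand assigned here, the median place was 79.5% of the way along the gene span, against 85.4% in kept regions. The last 10% of the span held 37.4% of members and 42.6% of kept regions, and the last 1000 nt held 14.2 and 16.2%. Members therefore lay toward the 3′ end of genes, much as kept regions did. The first 1000 nt held 13 members (8.4%), against 6.2% of kept regions and 2.8% of those missing in R298P. These 13 lie in IDE, ONECUT1, MAGEF1, CACUL1, C11orf71, TIMM13, DCLRE1A, BICD1, PIEZO2, DDX42, RNF5, UBL3 and EIF1B, named after their values were seen.

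Most member genes still held a summit in D312A. All 3 D312A libraries listed at least 1 summit in 108 of the 202 genes, 2 of them in 29 genes and 1 of them in 20. Of all 4469 genes with a candidate region 1.01% had no D312A summit, and by the rule each such gene holds a member. In 45 member genes no D312A library listed any summit. Besides ATP7A, GALM, FTO and ACAD8 these include AGMAT (agmatinase), NF2 (merlin, a tumour suppressor of the Hippo pathway), WRN (a RecQ helicase of DNA repair), NR5A2 and DUSP7, and, chosen after their values were seen, MMP9 (a secreted matrix protease), KCNJ11 (a subunit of ATP-sensitive potassium channels), PSMD13 (a proteasome subunit) and TIMM13 (a mitochondrial import chaperone). Summits of member genes outside the members numbered 333.7 ± 54.3 per library in D312A, 369.0 ± 27.2 in R298P, 434.0 ± 24.6 in WT and 421.0 ± 50.1 in EGFP (SD, n = 3 each). Per 10000 summits of the library these were 301.2 ± 10.0 in D312A, 297.5 ± 15.1 in R298P, 307.0 ± 14.6 in WT and 301.1 ± 10.4 in EGFP, so that relative to list length the lines differed by less than the spread between replicates. There were 8 member genes that also held a region missing in R298P and kept in D312A: BCL9L, BRD10, HNF4A, PIK3R4, PTPRN2, SIN3A, SPRY4 and TGILR.

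The genes were then read by function, in 29 lists. The lists are partial, so each count below holds for the listed genes and not for every gene of that function. Across all genes with a candidate region 4.52% held a member, and across all candidate regions assigned to a single gene 2.83% were members. Members fell into 14 lists, each with 1 to 4 regions, and 15 lists had none. With so few per list, the counts describe where members lie and do not set a list apart.

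Transcription factors of hepatocytes held 4 of 34 candidate regions in 4 of 14 genes. HNF4A, a nuclear receptor that maintains hepatocyte identity, had its region at chr20:44430526-44430608, 4029 nt from the 3′ end. It ranked at 13.8 and 11.0 in R298P replicates 1 and 3, 40.9 and 40.0 in WT replicates 1 and 3, and 10.4, 24.2 and 35.4 in EGFP, with no summit in replicate 2 of R298P or WT. This is a weak summit among many: over the gene D312A listed 7, 6 and 5 summits, R298P 7, 7 and 8, WT 11, 9 and 9, and EGFP 9, 9 and 7. Outside the member D312A held 7, 6 and 5 and R298P 6, 7 and 7. WT held 10, 9 and 8 there and EGFP 8, 8 and 6, so D312A overlapped with R298P and EGFP but not with WT. D312A summits lay 285 to 292 nt toward the 5′ end in all 3 replicates.

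ONECUT1 (hepatocyte nuclear factor 6) had its region near the 5′ end of the gene, at chr15:52789353-52789376. It ranked at 36.2, 58.5 and 25.5 in R298P, at 73.2, 43.8 and 62.6 in WT, and at 37.3 in EGFP replicate 2 alone. The gene held 4, 1 and 4 summits in D312A, 3, 7 and 5 in R298P, 6, 4 and 5 in WT, and 6, 7 and 3 in EGFP, ranges that overlap between all lines.

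CEBPB, a leucine zipper factor of the acute phase response, had its region at chr20:50191599-50191611, at 48.5% of the gene span. It ranked at 37.4 and 10.4 in R298P replicates 1 and 2, 48.4, 32.5 and 15.5 in WT, and 41.4 and 36.4 in EGFP replicates 2 and 3. D312A kept 3, 2 and 3 summits in the gene, against 5, 2 and 2 in R298P, 4, 4 and 4 in WT, and 4, 1 and 4 in EGFP. Outside the member D312A held 3, 2 and 3 and R298P 4, 1 and 2. WT held 3, 3 and 3 there and EGFP 4, 0 and 3, so D312A overlapped with every other line. NR5A2 (liver receptor homolog 1) held few summits anywhere: 0, 0 and 0 in D312A, 0, 1 and 2 in R298P, 0, 1 and 1 in WT, and 4, 3 and 1 in EGFP. Its region, chr1:200174471-200174526, lay 232601 nt from the nearest D312A summit, and it ranked at 10.9 and 30.1 in R298P replicates 2 and 3, 4.3 in WT replicate 2, and 60.0, 13.4 and 29.5 in EGFP.

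Wnt pathway genes held 4 of 39 candidate regions, in FZD3, in LRP6, a co-receptor for Wnt ligands, and in BCL9L, a coactivator of beta-catenin, which had 2. LRP6 (chr12:12119026-12119050) ranked at 55.8, 74.1 and 68.4 in R298P, 59.0 and 71.2 in WT replicates 1 and 2, and 41.0 and 75.9 in EGFP replicates 1 and 3. The gene kept 4, 3 and 4 summits in D312A, against 4 in each R298P and each WT library and 5, 3 and 5 in EGFP. Outside the member LRP6 held 4, 3 and 4 in D312A and 3, 3 and 3 in R298P. WT held 3, 3 and 4 there and EGFP 4, 3 and 4, so D312A overlapped with every other line. The stronger member of BCL9L (chr11:118902443-118902475) ranked at 53.9 and 74.8 in R298P replicates 2 and 3, 63.7, 60.1 and 57.4 in WT, and 57.7 and 60.1 in EGFP replicates 2 and 3. The other (chr11:118901134-118901178) ranked lower, between 8.9 and 71.2 over 8 libraries. Both lay within 214 nt of a D312A summit, and the gene held 7, 5 and 7 summits in D312A, 5, 11 and 8 in R298P, 10, 7 and 9 in WT, and 7, 10 and 8 in EGFP.

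Feedback inhibitors of growth factor signalling held 2 of 19 candidate regions. SPRY4, a Sprouty protein that dampens receptor tyrosine kinase signalling, had its region at chr5:142314937-142314953. It ranked at 44.2 and 21.8 in R298P replicates 1 and 3, 81.2, 37.2 and 78.8 in WT, and 62.1, 74.6 and 79.7 in EGFP. Over the gene there were 3, 2 and 3 summits in D312A and 3, 2 and 4 in R298P, against 5, 6 and 6 in WT and 4, 7 and 7 in EGFP. Outside the member, the gene held 3, 2 and 3 summits in D312A, 2, 2 and 3 in R298P, 4, 5 and 5 in WT, and 3, 6 and 6 in EGFP, so D312A overlapped with R298P and EGFP. DUSP7, a phosphatase of ERK, had no summit in any D312A library, against 1, 1 and 0 in R298P, 2, 1 and 1 in WT, and 2, 2 and 1 in EGFP. Its region (chr3:52050912-52050931) ranked at 29.5 and 49.6 in R298P replicates 1 and 2, 67.0, 67.5 and 50.4 in WT, and 49.8, 58.4 and 40.9 in EGFP.

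Among growth factor receptor genes, IRS1, the adaptor of the insulin receptor, and RICTOR, a subunit of mTOR complex 2, held 1 member each, of 33 candidate regions. IRS1 listed 7, 6 and 6 summits in D312A and 6, 6 and 8 in R298P, against 9, 9 and 12 in WT and 8, 10 and 9 in EGFP. Outside the member these were 7, 6 and 6 in D312A, 5, 5 and 8 in R298P, 8, 8 and 11 in WT, and 7, 10 and 8 in EGFP, so D312A overlapped with R298P and EGFP. RICTOR listed 2, 1 and 2 in D312A, 2, 2 and 1 in R298P, 3, 3 and 3 in WT, and 3, 2 and 2 in EGFP. Outside its member D312A held 2, 1 and 2 and R298P 1, 1 and 1. WT and EGFP each held 2, 2 and 2 there, so D312A overlapped with every other line.

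**Figure D5:**
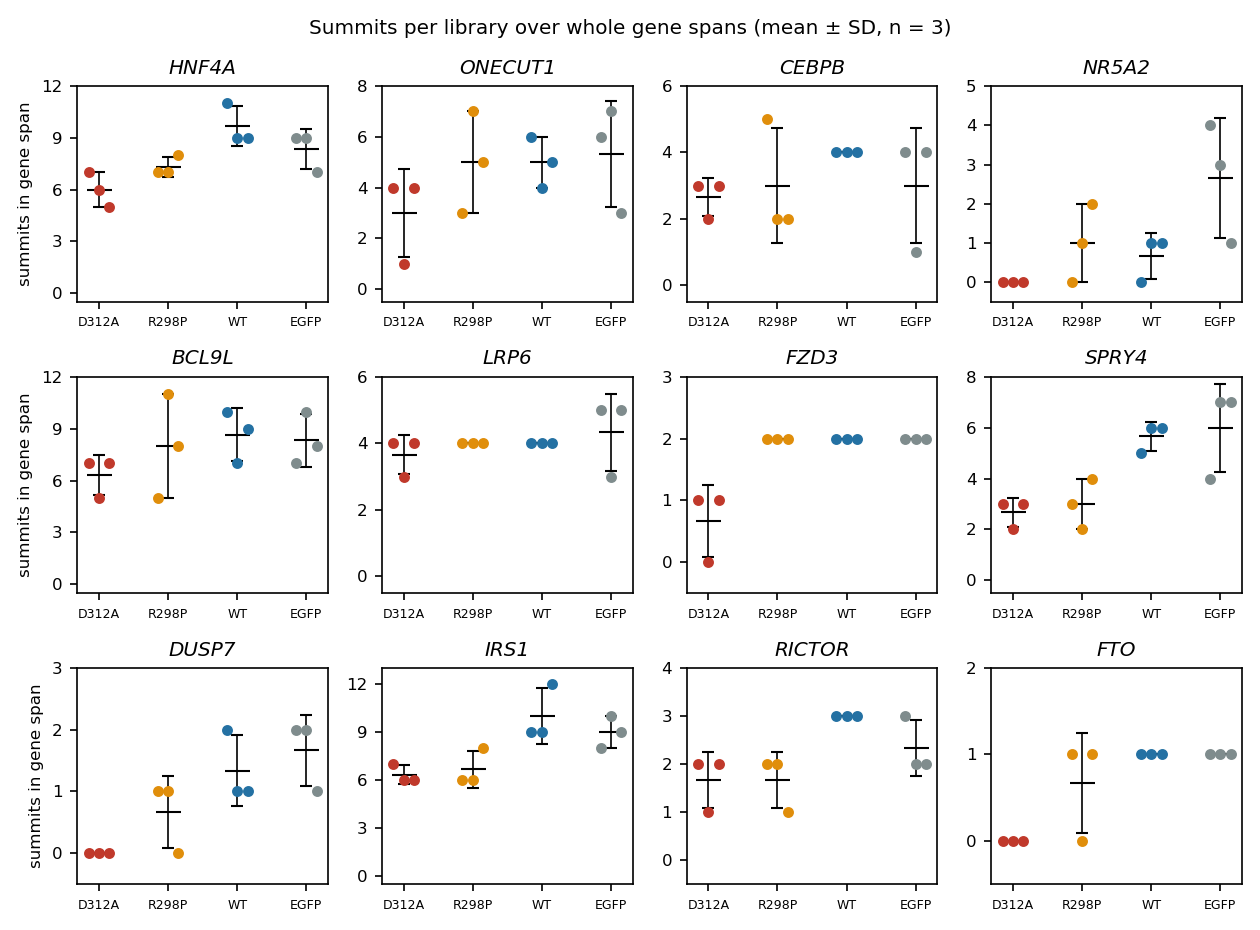
Number of listed summits over the whole span of 12 genes that hold members, by line, with 1 point per library and the mean ± SD of 3 replicates. Counts include the member, which D312A lacks by choice. D312A has no summit in NR5A2, DUSP7 or FTO, and in LRP6 it lists 4, 3 and 4, within the range of the other lines.

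Hippo pathway genes held 2 of 29 candidate regions. The region in NF2 (chr22:29694924-29694977) was weak, with percentiles of 45.1, 34.3 and 3.0 in R298P, 32.6, 4.7 and 1.2 in WT, and 37.1 and 2.8 in EGFP replicates 2 and 3. AMOTL2, an angiomotin-like protein that binds YAP, had its region (chr3:134357109-134357166) 124 nt from a D312A summit. Its percentiles were 74.1 and 43.9 in R298P replicates 1 and 2, 43.0 and 3.9 in WT replicates 1 and 2, and 24.8 and 5.2 in EGFP replicates 2 and 3.

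Listed chromatin genes held 6 members. KMT2E, a SET domain protein, and NSD2, which dimethylates histone H3 at lysine 36, held 2 of 51 candidate regions of histone methyltransferases. KMT2E (chr7:105112315-105112330) ranked at 62.1 and 67.0 in R298P replicates 1 and 2, 41.5, 81.2 and 52.1 in WT, and 70.3 and 58.8 in EGFP replicates 2 and 3. NSD2 (chr4:1979372-1979385) had a summit in replicates 2 and 3 of R298P, WT and EGFP but in no replicate 1. It ranked at 63.9 and 74.2 in R298P, 61.3 and 43.7 in WT, and 69.4 and 57.3 in EGFP. PHF8, a histone demethylase, with the deacetylases HDAC5 and SIRT1, held 3 of 23 candidate regions, with percentiles between 1.9 and 61.9. The acetyltransferase KAT6B held 1 of 38, with percentiles between 27.3 and 78.2 over the 6 libraries that had it. Chromatin remodellers held 0 of 53.

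Listed DNA damage genes held 3 of 20 candidate regions, in TP53BP1 and MDC1, which gather at double-strand breaks, and in WRN. The region in WRN (chr8:31080947-31081001) ranked at 24.5 and 64.5 in R298P replicates 1 and 3, 40.6 and 75.2 in WT replicates 1 and 3, and 30.0 and 60.1 in EGFP replicates 1 and 2. Its nearest D312A summit lay 157156 nt away. TP53BP1 was weak throughout, between 1.9 and 32.4. MDC1, like NSD2, had no summit in any replicate 1, and ranked between 4.5 and 58.4.

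Single members lay in E2F1, a driver of entry into S phase (1 of 21 candidate regions of cell cycle genes), in NR1D2, a circadian nuclear receptor (1 of 25), and in KLF10 (1 of 27). E2F1 (chr20:33676732-33676777) was the strongest of these, at 43.0, 54.1 and 78.7 in R298P, 66.1 and 46.5 in WT replicates 2 and 3, and 71.3 and 46.9 in EGFP replicates 1 and 2. Its nearest D312A summit lay 9543 nt away. NR1D2 and KLF10 stayed at or below 44.2 in every library.

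The lists without a member include the m6A writer complex, with 0 of 13 candidate regions in 7 genes, and the mRNA decay machinery, with 0 of 47. Listed secreted liver proteins had 0 of 20, the TGF beta and BMP pathway 0 of 31, splicing factors 0 of 18 and lipid and cholesterol genes 0 of 11. Members can lie in genes of these functions outside the lists, as CWC25 does for splicing. The lipid genes SOAT2, ELOVL1 and CPT2, named after their values were seen, also held members. Lists of this size hold few regions at a share of 2.83%.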

How the data were processed

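The m6A immunoprecipitates of 12 libraries, 3 for each of 4 HepG2 lines, were analysed as summit lists. Per the submitters' processing notes, the tools were MACS2 2.1.2, STAR 2.7.9a, bedtools 2.17.0, HOMER 4.9, Picard, edgeR, featureCounts, Trim Galore 0.4.4 and FastQC 0.11.2, on hg38, with no roles or thresholds stated. The deposited value of each summit was taken, from its range, as a −log10 p or q value, and served only for ranks and filters inside its own list. Summits were called per library.

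With Python 3.11.15 and pandas 2.3.3, summits within 100 nt were merged into regions, and presence meant at least 1 summit. A region was named after the single RefSeq (GRCh38.p14) protein-coding gene, or else lncRNA gene, whose span holds it. A percentile is the share of a list's summits at or below a summit's value. The merging and calling were tested on simulated data.

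Genes named by a set rule are the first 25 members by number of libraries and then by median percentile, members in listed genes, genes with several members, and the 5 nearest and 5 farthest from a D312A summit. Other genes are named with the reason given in place. Members and lists were chosen with earlier results of these data known. Positions are 1-based. The authors' deposited input table was not used, because 0 Ensembl identifiers could be paired with a symbol, and 18 of its columns could not be matched to labelled samples. Exons and genome sequence beyond gene starts were not used here. Alternatives were the merging distance, equal list length, a value of at least 10, stricter presence, an empty margin around the region, ranking over candidates only and leaving out libraries.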

Additional observations from a re-analysis of the deposited data

How the results depend on the processing

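The number of members depended on list length and on how many libraries the rule asks for. With all lists shortened to 8669 top-ranked summits it was 101, or 1.97% of candidates, with 40 of the 234 members still called. In that setting 233 regions were missing in R298P, and D312A summits lay within 200, 500 and 1000 nt of 16, 42 and 55 members. A minimum summit value of 10 gave 211 regions (3.63%), with 75 of the 234 members among them. Asking for 6 of 6 and 3 of 3 libraries gave 9 members (0.217%) and 23 regions missing in R298P. Asking for no D312A summit within 200 nt gave 2.48%. Merging within 200 nt left 0 members within 200 nt and 67 within 500 nt of a D312A summit. Ranking over candidate summits only gave members a mean median percentile of 24.4, against 41.0 over whole lists. Merging within 50 or 200 nt gave 217 and 214 members, of which 200 and 186 were among the 234.

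Leaving out replicates moved the count between 115 and 692, the percent between 1.9 and 8.69, and the regions missing in R298P between 100 and 690. The count was 692 without D312A replicate 1, 603 without D312A replicate 3, and 150, 140 and 115 without R298P replicates 1, 2 and 3. It was 145 and 136 without WT replicates 1 and 3, and 143 and 149 without EGFP replicates 1 and 2. Leaving out a WT, EGFP or R298P library did not lower the number of libraries in which a summit was required, so the rule was stricter. Candidates fell from 7980 to 7204 without WT replicate 1 and to 6535 without R298P replicate 1. The lower counts therefore do not show dependence on the library left out. The count was 380 without replicate 1 of all lines, where 232 regions were missing in R298P. Without replicate 3 of all lines 281 were missing in D312A and 245 in R298P, so in both settings more regions were missing in D312A than in R298P. That order also held without any single D312A library, but there the rule asks for absence in fewer D312A libraries. Without R298P replicates 1, 2 and 3 the rule eases the other way, and 549, 502 and 690 regions were missing in R298P. Neither set of counts tells which line lacks more regions. Of the 234 members, 28 were called under each of both merging distances, equal length and the minimum value of 10, among them FZD3, ATP7A, PDZD8, DGKQ, FTO, E2F1 and NSD2. No paired analysis was possible because the results come from no test. Motif windows of other lengths and the authors' deposited table could not be used. Depth is unknown, so an absent summit in a weak region sets no limit on its methylation.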

Other observations

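Zinc finger genes named ZNF were noticed among the members after these were seen. Members lay in 11 of 235 ZNF genes with a candidate region (ZNF200, ZNF225, ZNF318, ZNF358, ZNF44, ZNF449, ZNF460, ZNF528, ZNF561, ZNF574 and ZNF621), or 2.75% of their 400 candidate regions. Genes named ZBTB held members in 2 of 28 (ZBTB14 and ZBTB39), or 3.12% of 64 candidate regions. Both shares are close to the 2.93% over all candidates. ZNF358 and ZNF528 had no summit in any D312A library.

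MAGEF1 and ANKRD55 held 2 members each. In MAGEF1, an intronless gene of the MAGE family, the regions lie at 41.4 and 59.1% of the span, and outside them the gene held 0, 0 and 1 summits in D312A, 0, 0 and 1 in R298P, 1, 1 and 0 in WT, and 0, 1 and 0 in EGFP. In ANKRD55, an ankyrin repeat gene, the stronger region (chr5:56127389-56127412) ranked at 85.7, 78.7 and 90.9 in R298P, 83.3 and 66.1 in WT replicates 1 and 3, and 59.6 and 58.7 in EGFP replicates 1 and 3. Outside both members the gene held 0, 0 and 1 summits in D312A, 0, 0 and 1 in R298P, 1, 0 and 0 in WT, and 0, 2 and 2 in EGFP, so the lines overlapped.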
